A study of Mus musculus with 6 samples.

Results

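Cholesterol is made, taken in and sent out by a set of gene products that most animal cells express, and 30 genes of this set were followed in mouse growth plate cartilage, of 46078 genes listed in the count tables. The members were listed by gene symbol for their roles in this route. They comprise 18 enzymes of synthesis (7 of the mevalonate arm and 11 of the sterol arm), 4 regulators around the transcription factor Srebf2, 4 genes of intracellular transport and esterification, and 4 genes of the LXR receptors and the efflux pumps. All 30 passed the filter on low counts.

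Growth plate cartilage was taken from the distal femur and the proximal tibia at E18.5, shortly before birth, for 3 control and 3 Idh1 mutant libraries. The methods for these libraries do not state how many animals each came from. The mutants carried Col2a1-Cre together with a lox-stop-lox (LSL) allele of mutant Idh1 on 1 chromosome, written Col2a1-Cre; Idh1 LSL/+. The controls, littermates by the methods, carried Idh1 LSL/+ without Cre, so the groups differed in Cre and in mutant Idh1 at once, and the effects of these cannot be told apart. The Col2a1 promoter drives Cre in cells that have expressed Col2a1, chiefly of the cartilage lineage, and reads of the recombined allele were not analysed here. The labels' text on animal care gives an age of 2 months, while the labels of the single samples and the methods give E18.5.

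Cells build cholesterol from acetyl-CoA through mevalonate, squalene and lanosterol. When sterols in the endoplasmic reticulum are scarce, the escort protein Scap carries SREBP-2 (the product of Srebf2) to the Golgi apparatus, where it is cut and freed to switch on the genes of synthesis and uptake; when sterols are plentiful, the Insig proteins hold Scap back. Oxysterols, in turn, activate the LXR receptors, which raise the pumps that pass cholesterol to lipoproteins outside the cell. In the skeleton the route is known from inherited defects of Dhcr7, Ebp and Nsdhl, which disturb bone and cartilage, and from the cholesterol that is attached to Hedgehog ligands of the growth plate.

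The libraries held between 23445687 and 30415773 counted reads, and 3 counts, taken as the lowest level that a library could show, corresponded to 0.0986 to 0.128 CPM, the counts of a gene scaled to the total of its library. Levels below are in CPM scaled with TMM factors, which lay between 0.964 and 1.02. The cartilage markers Col2a1 (1923 to 5245 CPM), Acan (711 to 895 CPM) and Sox9 (75.1 to 121 CPM) were present in every library, as were 8 of 8 skeletal muscle markers, which summed to 13843 to 21507 CPM, so the pieces also held muscle. Tendon markers summed to 2993 to 3288 CPM in the controls against 2004 to 2341 CPM in the mutants, and erythroid markers to 545 to 1583 CPM and 288 to 427 CPM. Osteoblast markers varied between libraries, with sums of 1571, 649 and 366 CPM in controls 1, 2 and 3 and 1632, 2386 and 1420 CPM in mutants 1, 2 and 3, where the groups overlapped through control 1. Liver is a main site of sterol synthesis in the body, and its markers summed to at most 13.9 CPM, in control 3, with Cyp7a1 at 0 counts in all 6 libraries. Of 6 adipocyte markers, Adipoq, Plin1, Cidec and Lep stayed at or below 0.284 CPM, while Fabp4 (109 to 135 CPM) and Pparg (4.52 to 5.06 CPM) were present in every library. Mutant 3 was the only library with 0 counts of 4 Y-linked genes and had 26356 counts of Xist against 0 to 13 in the others, which bears on the X-linked members Nsdhl and Ebp. In these bulk samples, fewer cells of a type and less RNA per cell cannot be told apart.

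Promoter sequences are shown because most enzymes of synthesis were lowest in the same library, control 2, as described further on. RefSeq promoters of GRCm38.p6, running from 250 bases before to 50 bases after each start of transcription, were matched by symbol for 24 of the 30 members, 15 of them enzymes. A motif was searched as letters on both strands. The sterol regulatory element, the site of SREBP binding, was searched as TCACNCCAC, the CCAAT box, the site of the factor NF-Y, as CCAAT, and the GC box, the site of Sp1, as GGGCGG. Matches of different motifs did not overlap in the members' windows. In the 4 sequences here, capitals mark matches of the first 2 motifs on either strand (a CCAAT box on the other strand reads ATTGG), each sequence runs 5′ to 3′ on its gene's strand, and each stops at or before the base preceding the first exon. Hmgcs1, Mvd and Insig1 are examples of genes that were low in control 2, and Abca1 is an example of a gene that was not. Abca1 does not stand for all of the latter, since Npc2, Pmvk and Soat1 were not low either and hold a CCAAT box. GC boxes are not in capitals, and Abca1 holds them 163 and 97 bases before its start. The examples were picked after the levels were seen, and the part of a motif in those levels was not tested.
Hmgcs1 (chr13:119690101-119690350, plus strand): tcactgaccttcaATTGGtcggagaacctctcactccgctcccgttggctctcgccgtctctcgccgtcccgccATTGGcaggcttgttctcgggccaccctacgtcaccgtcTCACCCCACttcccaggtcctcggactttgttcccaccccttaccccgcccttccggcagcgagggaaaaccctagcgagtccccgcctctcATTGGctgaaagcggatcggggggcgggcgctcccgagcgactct
Mvd (chr8:122443423-122443672, minus strand): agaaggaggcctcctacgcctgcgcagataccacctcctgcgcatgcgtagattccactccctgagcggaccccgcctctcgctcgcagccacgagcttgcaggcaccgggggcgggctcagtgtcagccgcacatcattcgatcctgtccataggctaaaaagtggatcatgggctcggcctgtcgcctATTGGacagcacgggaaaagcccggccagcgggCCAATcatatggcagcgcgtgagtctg
Insig1 (chr5:28071162-28071362, plus strand): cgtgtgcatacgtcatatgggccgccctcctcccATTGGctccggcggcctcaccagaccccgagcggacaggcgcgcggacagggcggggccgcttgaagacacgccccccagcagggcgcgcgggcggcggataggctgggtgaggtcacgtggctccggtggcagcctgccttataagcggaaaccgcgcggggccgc
Abca1 (chr4:53159896-53160145, minus strand): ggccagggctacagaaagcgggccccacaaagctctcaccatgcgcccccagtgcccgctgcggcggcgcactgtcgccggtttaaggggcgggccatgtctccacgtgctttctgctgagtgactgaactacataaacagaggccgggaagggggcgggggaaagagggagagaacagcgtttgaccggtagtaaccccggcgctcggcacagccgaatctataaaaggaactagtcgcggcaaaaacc

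The CCAAT box was found in 14 of 15 enzyme promoters (93.3%, Acat2 being the exception), in 3 of 4 regulators (not Scap) and in both transport genes that had a promoter, Npc2 and Soat1. None of the 3 LXR and efflux promoters (Nr1h2, Nr1h3 and Abca1) held it. Of the 27025 genes in the promoter table, 41.1% had a match. The shares over all genes in this paragraph cover that whole set, tested here or not, while all members passed the filter on low counts. A share over the tested genes alone was not computed. GC boxes were as frequent among the enzymes, with 14 of 15 (Pmvk lacking one), and were found in 38.2% of all genes. The strict spelling of the sterol regulatory element occurred in 1 of 24 member promoters, that of Hmgcs1, 137 bases before the start, against 1.44% of all genes. These counts describe letters in a short window, and no match says only that the letters were not in it.

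**Figure D1:**
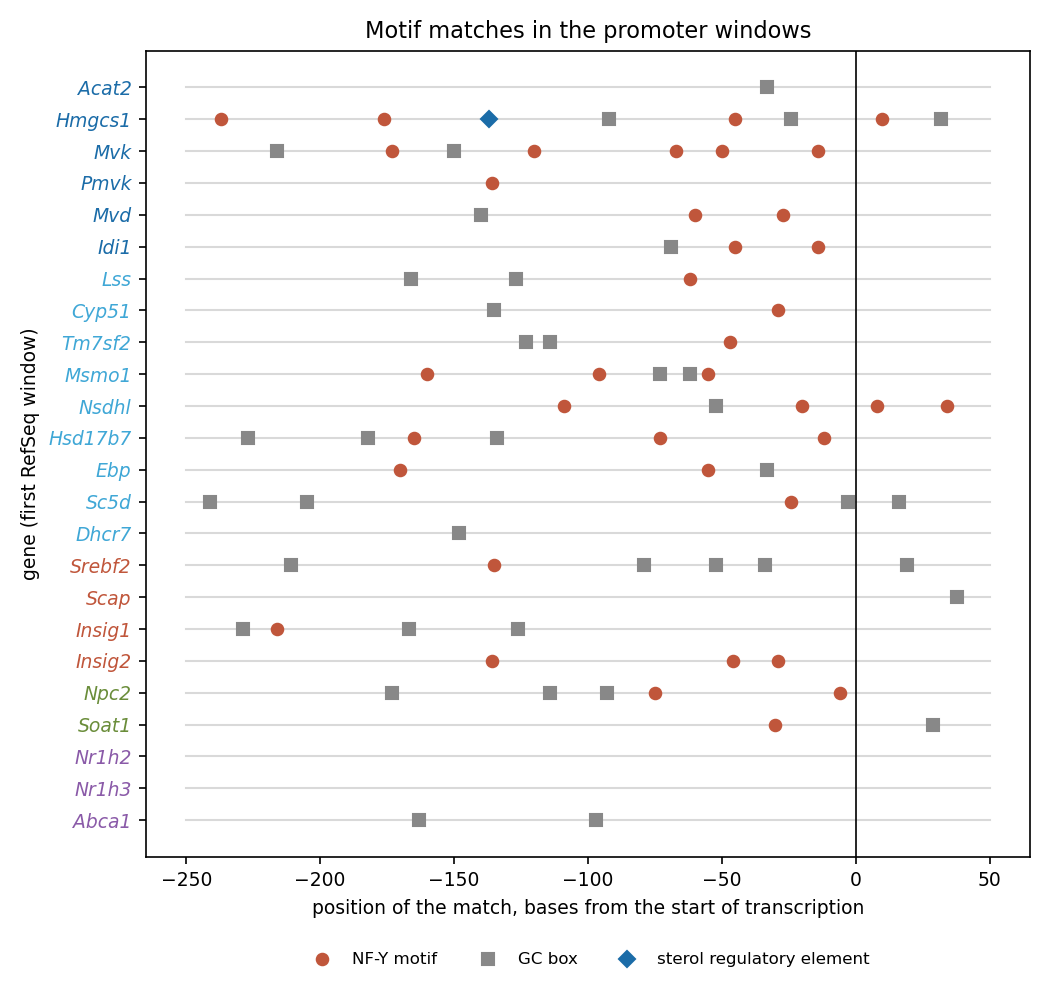
Matches of 3 promoter motifs in the first RefSeq promoter window of 24 members, with the position in bases from the start of transcription on the x axis and 1 gene per line, coloured by role. Round points (the CCAAT box bound by NF-Y) lie in nearly every enzyme promoter and in none of the 3 LXR and efflux promoters, and 1 diamond marks the sterol regulatory element of Hmgcs1 137 bases before the start. For Dhcr7, a CCAAT match lies in another of its windows and is not drawn.

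Whether the RNA of this route differed between the groups, in whole pieces of tissue, was asked gene by gene. None of the 30 members was called at an adjusted p under 0.05 by edgeR (quasi-likelihood test, Benjamini-Hochberg adjustment over all tested genes), where 0.190% of the 16813 tested genes were called. DESeq2 and limma-voom also called 0 of 30, against 1.15% and 0.113% of all genes. At an unadjusted p under 0.05 edgeR gave 2 of 30 members (6.67%), Msmo1 and Abcg1, both higher in the mutants, beside 8.64% of all tested genes (3.71% higher and 4.93% lower). DESeq2 gave 1 and limma-voom 2 at that level. The groups did not overlap for 2 members, Msmo1 (mutants higher) and Ebp (mutants lower), again 6.67%, while 14.4% of all genes separated in this way (6.85% with the mutants higher and 7.58% lower). With both directions together, these shares lie below those of all tested genes. For higher values alone, the share at an unadjusted p under 0.05 lies above (6.67% beside 3.71%). Counts of 2 are too small to be read as a difference from all genes.

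The precision of these comparisons can be read from their intervals. The 95% interval of the fold change lay within 2-fold in either direction for all 30 members, and within 1.5-fold for 27 of 30, with Msmo1, Nr1h3 and Abcg1 as the exceptions. Over the members the bounds ran from a log2 fold change of -0.53 to one of 0.70, both set by Nr1h3, the member with the lowest level. Among the enzymes they ran from -0.46 (Idi1) to 0.61 (Msmo1). The median log2 fold change was 0.05 over the 30 members, of which 19 lay above 0 and 11 below, and 0.00 over all tested genes. The intervals hold for whole pieces and do not bound a difference confined to a part of the cells. From single cells, the paper reports upregulated genes of cholesterol homeostasis in a cluster of mainly mutant cells. Single cells were not analysed here.

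**Figure D2:**
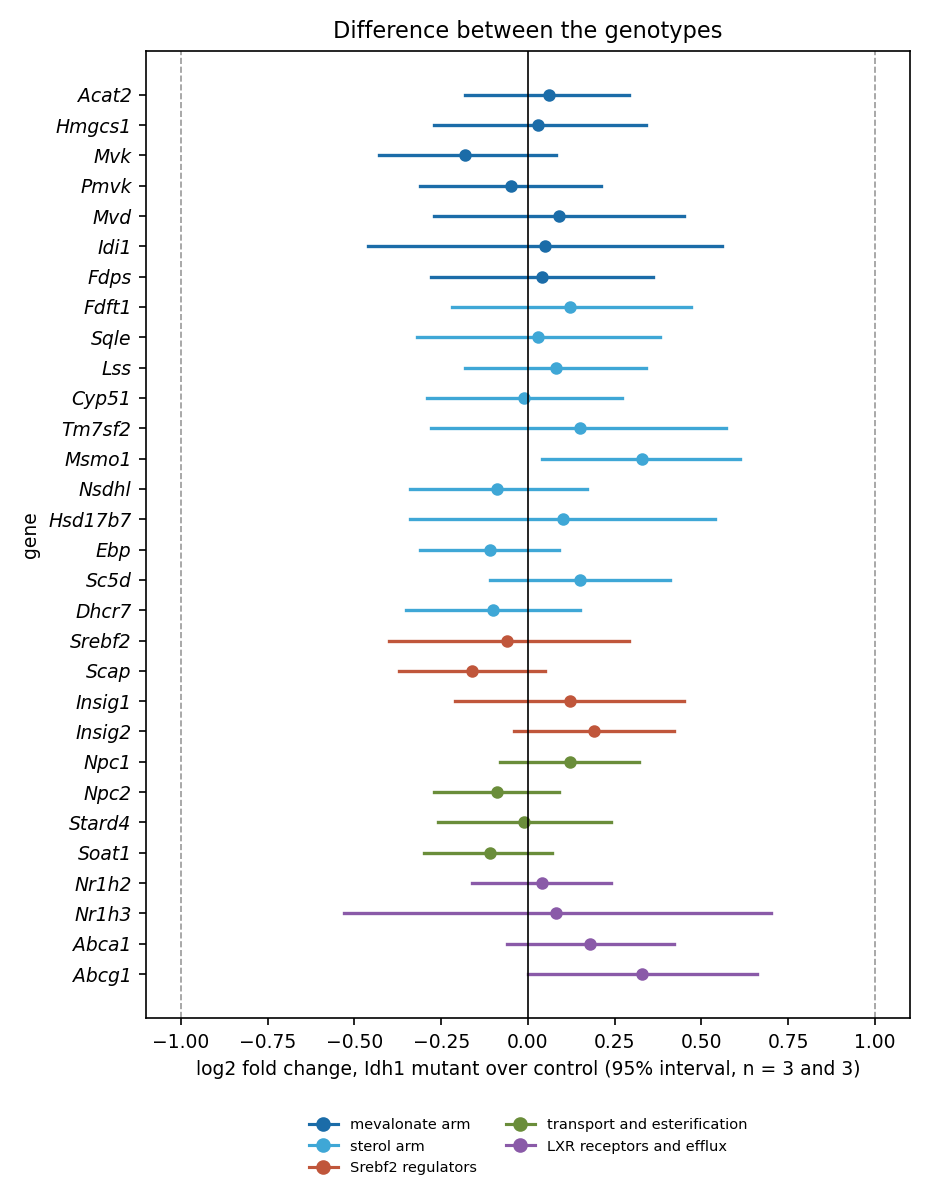
Log2 fold change of each member, mutant over control, on 1 axis, with its 95% interval as a bar and genes grouped by role. Bars that leave 0 belong to Msmo1 (0.04 to 0.61) and, at the edge, Abcg1 (0.00 to 0.66), and the widest bar is that of Nr1h3 (-0.53 to 0.70). Dashed lines mark a 2-fold difference, which no bar reaches.

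The mevalonate arm turns acetyl units into farnesyl pyrophosphate, and its 7 genes had log2 fold changes between -0.18 and 0.09 with a median of 0.04. Hmgcs1, the synthase that forms HMG-CoA, had the highest level per length of the arm, and its levels were 120, 79.5 and 114 CPM in controls 1, 2 and 3 and 110, 108 and 103 CPM in mutants 1, 2 and 3. The mutants lay close together and inside the range of the controls, of which control 2 was far below the other controls. The fold change was 1.02 (95% interval 0.827 to 1.27, adjusted p = 0.971). Idi1, which isomerises isopentenyl pyrophosphate, had the lowest level per length, with 5.40, 3.33 and 3.65 CPM in the controls against 3.56, 4.92 and 4.34 CPM in the mutants. These values overlapped, and the fold change was 1.04 (0.728 to 1.48, adjusted p = 0.973).

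The other genes of the arm overlapped between the groups too. Mvk, mevalonate kinase, gave the lowest log2 fold change of all members, -0.18 (-0.43 to 0.08, adjusted p = 0.734), from 23.6, 20.7 and 27.0 CPM in the controls against 22.3, 20.7 and 20.1 CPM in the mutants. Log2 fold changes of the thiolase Acat2 and of Pmvk and Mvd, the enzymes of the next steps after Mvk, were 0.06, -0.05 and 0.09. Fdps, which makes farnesyl pyrophosphate, stood at 0.04, but its count is uncertain, since 26.7% of its exon bases are shared with the transcript Gm43738 on the same strand and reads that fitted both were not counted.

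The sterol arm leads from farnesyl pyrophosphate through squalene to cholesterol, and its 11 genes had a median log2 fold change of 0.08, with 7 above 0 and 4 below. Msmo1, which takes part in removing the methyl groups at carbon 4 of the sterol ring, had 28.6, 20 and 25.7 CPM in the controls against 30.6, 33.0 and 29.8 CPM in the mutants. All mutants lay above all controls, the nearest pair being mutant 3 and control 1. The fold change was 1.26 (95% interval 1.03 to 1.53, unadjusted p = 0.0281), and with adjustment over all tested genes p was 0.509. Without control 2 its log2 fold change was 0.20 in place of 0.33, and no library left out brought an adjusted p under 0.316. The Msmo1 promoter holds 3 CCAAT matches, shown here with the 10 bases on each side, since this member came nearest to the threshold. They lie ahead of the RefSeq start but inside the first exon of the longest GENCODE transcript, in its 5′ untranslated part.
Msmo1 (chr8:64733724-64733748, minus strand): atccgcgcagCCAATgactggcgcc
Msmo1 (chr8:64733660-64733684, minus strand): ttagcacggaCCAATcactgcacgg
Msmo1 (chr8:64733619-64733643, minus strand): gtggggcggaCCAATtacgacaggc

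Ebp, the sterol isomerase encoded on the X chromosome, had 25.7, 24.8 and 25.3 CPM in the controls against 21.4, 24.5 and 24.1 CPM in the mutants. The groups did not overlap, yet mutant 2 and control 2 nearly met, and mutant 1 was the lowest library. The fold change was 0.924 (0.804 to 1.06, adjusted p = 0.799). Without mutant 3, whose X- and Y-linked counts set it apart, the log2 fold change of Ebp was -0.14 in place of -0.11, and that of Nsdhl, the other X-linked member and a dehydrogenase of the same demethylation steps as Msmo1, was -0.06 in place of -0.09. For Nsdhl the level was 17.8, 14.5 and 18.1 CPM in controls and 16.3, 16.0 and 15.2 CPM in mutants, with all mutants inside the control range.

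Fdft1, squalene synthase, had the highest level per length of the sterol arm. Its values were 41.7, 30.2 and 47.9 CPM in the controls against 46.4, 45.7 and 38.5 CPM in the mutants, which overlapped, with control 2 lowest (fold change 1.09, 0.858 to 1.38, adjusted p = 0.891). Of its exon bases in GENCODE, 18.3% also belong to Ctsb on the opposite strand, and because counting ignored strand, its count is uncertain. Lss, which closes the ring to lanosterol, had the lowest level per length, with 19.7, 17.7 and 21.6 CPM in the controls against 23.4, 19.3 and 19.7 CPM in the mutants (fold change 1.06, 0.884 to 1.26, adjusted p = 0.912). Mutant 1 was the highest and control 2 the lowest library for Lss, and the groups overlapped.

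The remaining sterol genes lay between log2 fold changes of -0.10 (Dhcr7, the last reductase before cholesterol) and 0.15 (Sc5d, a desaturase, and Tm7sf2, a sterol reductase). Sqle, the epoxidase that commits squalene to sterols, stood at 0.03, Cyp51, the lanosterol demethylase, at -0.01, and Hsd17b7, a reductase of the demethylation steps, at 0.10. All of them overlapped between the groups. Tm7sf2 shares 12.1% of its exon bases with Vps51, Cyp51 3.76% with Akap9 and Lss 3.53% with 4930483K19Rik, so reads in those stretches were not counted.

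Among the regulators, Srebf2 itself had 164, 119 and 189 CPM in the controls against 168, 150 and 136 CPM in the mutants. Control 2 was again the lowest library and control 3 the highest, with the mutants between them (fold change 0.962, 0.758 to 1.22, adjusted p = 0.959). Scap, with the lowest level per length of the 4, had 37.4, 41.2 and 45.2 CPM in the controls against 39.3, 36.2 and 35.1 CPM in the mutants. These overlapped through mutant 1, and the fold change was 0.893 (0.772 to 1.03, adjusted p = 0.699). The count of Scap is uncertain as well, with 13.2% of its exon bases shared with 5830462I19Rik on the opposite strand.

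Insig1, a target of SREBP-2 as well as its brake, had 53.4, 34.9 and 52.8 CPM in the controls against 53.8, 51.6 and 47.7 CPM in the mutants. Control 2 stood alone below the rest, whose values overlapped (log2 fold change 0.12, -0.21 to 0.45). Insig2, the second brake, had 29.6, 25.6 and 25 CPM in the controls against 27.9, 33.4 and 30.3 CPM in the mutants, with mutant 1 below control 1 (log2 fold change 0.19, -0.04 to 0.42, adjusted p = 0.667). Per length, Insig1 exceeded Insig2 by 1.53 to 2.37 times in the controls and by 1.74 to 2.17 times in the mutants, with control 2 lowest. Over the 4 regulators the median log2 fold change was 0.03.

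Npc2, the soluble lysosomal protein that hands cholesterol to Npc1, had the highest level per length of all 30 members. It stood at 167, 187 and 170 CPM in the controls against 157, 171 and 163 CPM in the mutants, which overlapped (fold change 0.939, 0.828 to 1.06, adjusted p = 0.827). Soat1, which esterifies cholesterol for storage, was the lowest of the 4 per length, with 38.0, 35.3 and 33.1 CPM in the controls against 32.1, 32.6 and 33.6 CPM in the mutants. Mutant 3 lay above control 3, and the fold change was 0.924 (0.811 to 1.05, adjusted p = 0.782). Npc1, the membrane partner of Npc2, had a log2 fold change of 0.12 and shares 5.31% of its exon bases with other genes, and Stard4, which moves sterol between membranes, had -0.01. Per length Npc2 exceeded Npc1 by 13.4 to 14.7 times in the controls and by 11.0 to 12.8 times in the mutants, so this ratio did not overlap between the groups. It was computed as a description of levels and has no test. Ratios of other pairs, computed in the same way, overlapped between the groups, and 14.4% of all tested genes separated by themselves.

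All 4 genes of the LXR receptors and efflux had log2 fold changes above 0, with a median of 0.13. Abcg1, a pump that passes cholesterol to high-density lipoprotein, had 11.5, 10.2 and 14.1 CPM in the controls against 13.0, 16.8 and 15.2 CPM in the mutants. Control 3 lay above mutant 1, so the groups overlapped. The fold change was 1.26 (95% interval 1.0 to 1.58, unadjusted p = 0.0493), and the adjusted p was 0.575. Abca1, the pump that loads apolipoprotein A-I, had 64.3, 61.0 and 59.8 CPM in the controls against 63.7, 64.0 and 81.8 CPM in the mutants. Mutant 3 alone stood above the rest, and without it the log2 fold change was 0.05 in place of 0.18.

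The receptors differed in level more than in genotype. Nr1h2, which encodes LXR beta, had 55.3, 60.8 and 49.1 CPM in the controls against 56.5, 55.3 and 57.8 CPM in the mutants (log2 fold change 0.04, -0.16 to 0.24). Nr1h3, which encodes LXR alpha, had 2.52, 3.23 and 1.59 CPM in the controls against 2.80, 2.32 and 2.69 CPM in the mutants (log2 fold change 0.08, -0.53 to 0.70). The mutants lay inside the control range for both. Per length the level of Nr1h2 was 14.1 to 23.1 times that of Nr1h3 in the controls against 15.1 to 17.9 times in the mutants.

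Macrophages are rich in LXR targets, and 10 of 10 macrophage markers were present in every library. Their summed level was 444 to 467 CPM in the controls against 446, 573 and 611 CPM in mutants 1, 2 and 3. Of the 10, 7 were highest in mutant 3 and 3 in mutant 2, the libraries in which Abca1 and Abcg1, respectively, were highest. The part of these cells in the values of the pumps was not tested.

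**Figure D3:**
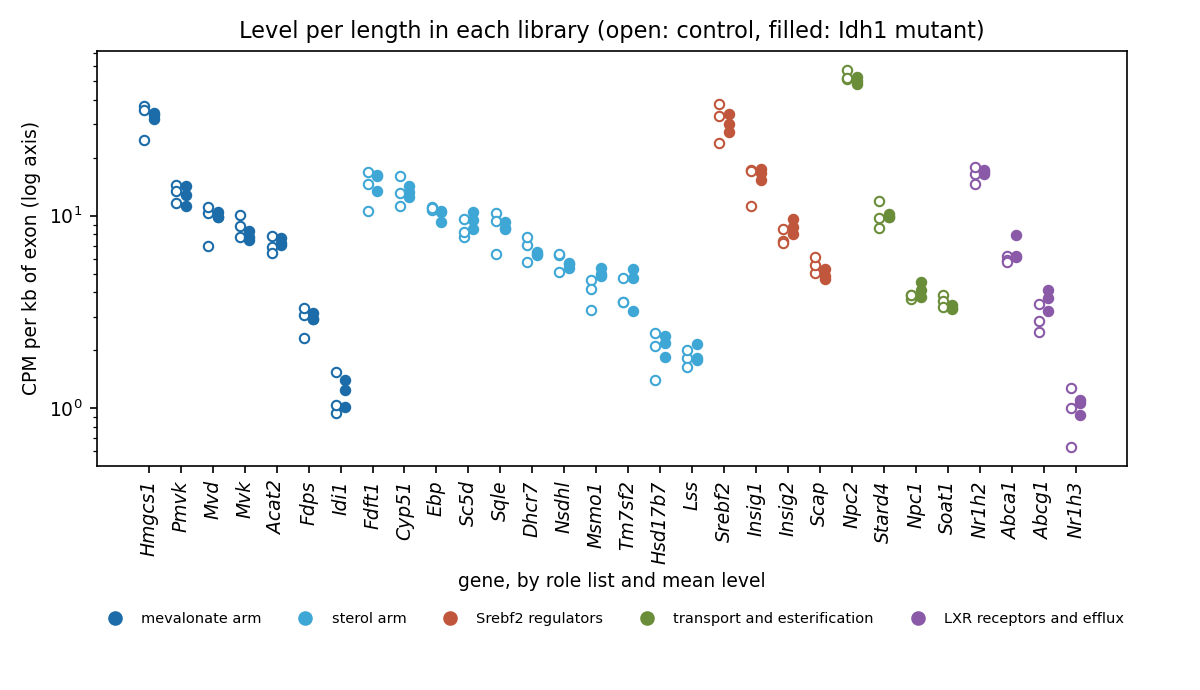
Level of each member in CPM per kb of exon on a log axis, 1 point per library (open, controls; filled, mutants), with genes ordered by role and mean level. Npc2, Hmgcs1 and Srebf2 are highest and Nr1h3 and Idi1 lowest, and the open and filled points of a gene overlap except for Msmo1 and Ebp.

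Levels of different genes can be compared only per length of exon. On the scale of CPM per kb, averaged over the 6 libraries, Npc2 (51.9) was followed by Hmgcs1 (32.7), Srebf2 (30.9), Nr1h2 (16.6), Insig1 (15.9) and Fdft1 (14.6). The lowest were Fdps (2.95), Hsd17b7 (2.07), Lss (1.87), Idi1 (1.20) and Nr1h3 (1.0). Hmgcs1 and Srebf2 overlapped across libraries, as did Nr1h2 and Insig1. The median member stood at 7.71 and the median enzyme at 7.77, above the median of all tested genes, 4.42, and below their upper quartile, 12.1. The length used was that of all annotated exons of a gene together, so genes with long rarely used exons appear lower than they are.

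For most enzymes, Srebf2 and Insig1, the larger differences were between libraries of the same group, and they concerned control 2. This was seen in the values and then counted, so it is a description with no test. Of the 18 enzymes, 14 (77.8%) had their lowest value of the 6 libraries in control 2, as had 19.6% of all genes. Among the controls alone, control 2 was lowest for 16 of 18 (88.9%, all genes 33.4%), with Pmvk and Tm7sf2 as the exceptions. Summed over the enzymes, the level was 554, 418 and 545 CPM in the controls against 528, 534 and 492 CPM in the mutants.

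Control 2 lay below the mean of controls 1 and 3 by a median log2 difference of -0.36 over the enzymes, against 0.01 over all genes. Hsd17b7 showed the largest gap, with 12.6, 7.21 and 10.8 CPM in the controls, a level in control 2 of 0.618 times that mean. Sqle, with 57.1, 35.0 and 51.9 CPM, stood at 0.643 times, Mvd, with 18.2, 12.2 and 19.5 CPM, at 0.647 times, and Hmgcs1 at 0.679 times. Insig1 (0.658 times) and Srebf2 (0.674 times) went with the enzymes. Scap and Insig2 stood apart from them, at 0.997 and 0.938 times.

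The transport, LXR and efflux genes did not follow control 2 down, with a median log2 difference of 0.02. Npc1, Npc2, Soat1 and Abca1 lay between -0.02 and 0.15 on this scale. Stard4 (-0.31) and Abcg1 (-0.32) were lower in control 2, while Nr1h2 (0.22) and Nr1h3 (0.69) were higher. Genes with a CCAAT box were not all low in control 2. Npc2, Pmvk, Soat1, Ebp and Insig2, which hold it, stood at 1.11, 1.15, 0.994, 0.971 and 0.938 times the mean of the other controls. Acat2, which lacks it, stood at 0.873 times. The part of this motif in the levels of control 2 was not tested.

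**Figure D4:**
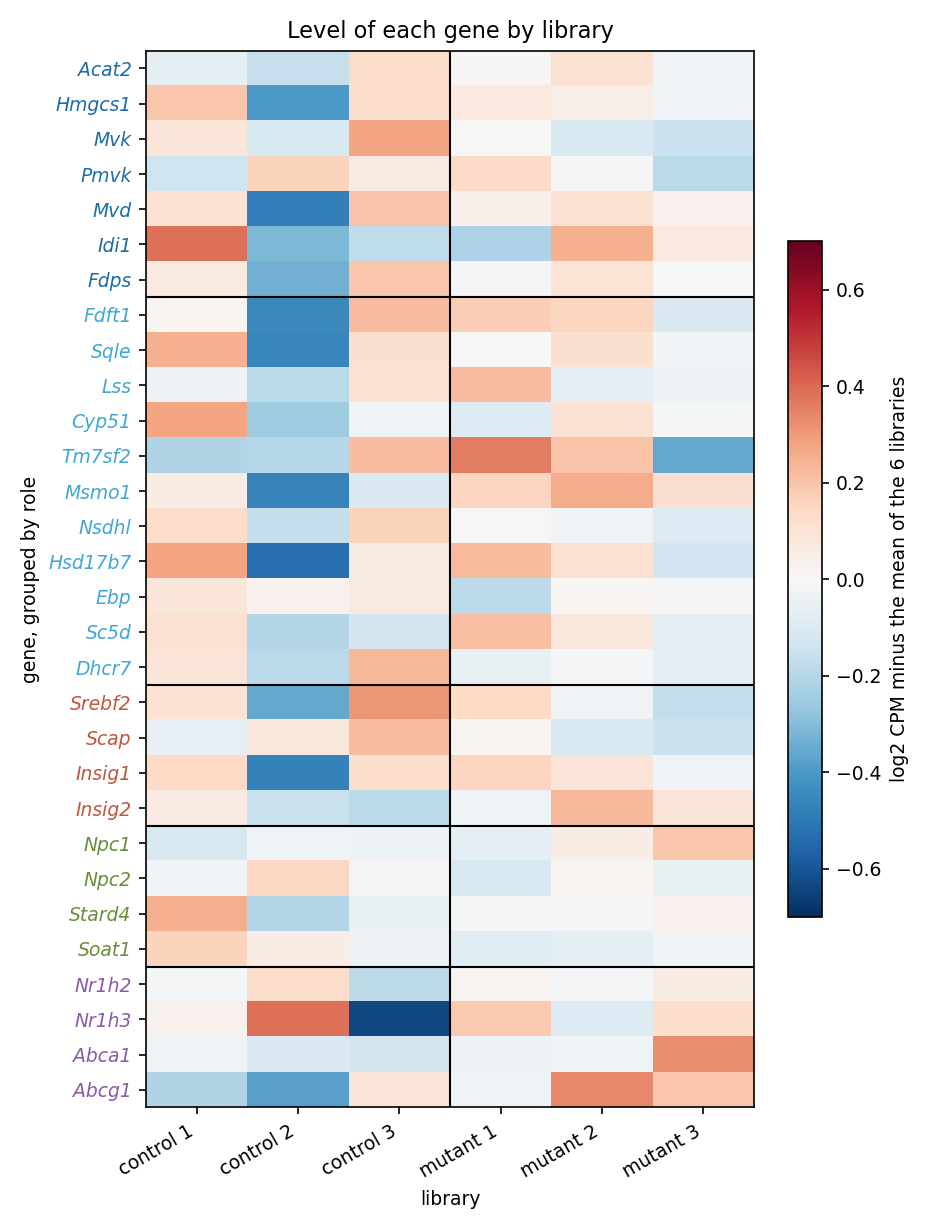
Colour map of each member's log2 deviation in each library from its mean over the 6 libraries, with genes as lines grouped by role and libraries as columns, on a colour scale from -0.7 to 0.7. The column of control 2 is low for most synthesis enzymes, Srebf2 and Insig1 and not for most of the transport, LXR and efflux genes.

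Some markers were highest in control 2, where most enzymes were low. Erythroid markers summed to 545, 1583 and 639 CPM in the controls, with 5 of 6 highest in control 2. Cartilage markers summed to 5044, 6616 and 3294 CPM in the controls against 5114 to 7274 CPM in the mutants, with 6 of 8 highest in control 2. Most of each cartilage sum was Col2a1. Mutant over control, the log2 fold change was 0.45 for Col2a1, 0.20 for Acan and 0.03 for Matn1. It was -0.20 for Sox9, -0.43 for Col9a1, -0.59 for Matn3, -0.12 for Cnmd and -0.15 for Comp. Muscle markers summed to 14510, 16214 and 21507 CPM in the controls, macrophage markers to 467, 453 and 444 CPM, and osteoblast markers, given above, were intermediate in control 2. Their part in the low enzyme levels was not tested.

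The spread between libraries was unequal in the groups. For the enzymes, the median SD of the log2 level was 0.25 among the controls and 0.09 among the mutants, and it was larger in the controls for 14 of 18 (77.8%), where 59.9% of all genes were so. Leaving out control 2 turned the balance of the enzymes, from 12 above 0 and 6 below with a median log2 fold change of 0.05 to 5 above and 13 below with a median of -0.09. The median of the regulators moved from 0.03 to -0.11 and that of the transport, LXR and efflux genes from 0.06 to 0.13. None of the members was called at an adjusted p under 0.05 without control 2, and the lowest adjusted p was then 0.554, for Mvk. Control 2 was picked out for its low enzyme levels. The larger spread of the controls and the lower enzyme median without it therefore restate that library and are not separate results. Enzymes that vary together are also not independent counts.

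**Figure D5:**
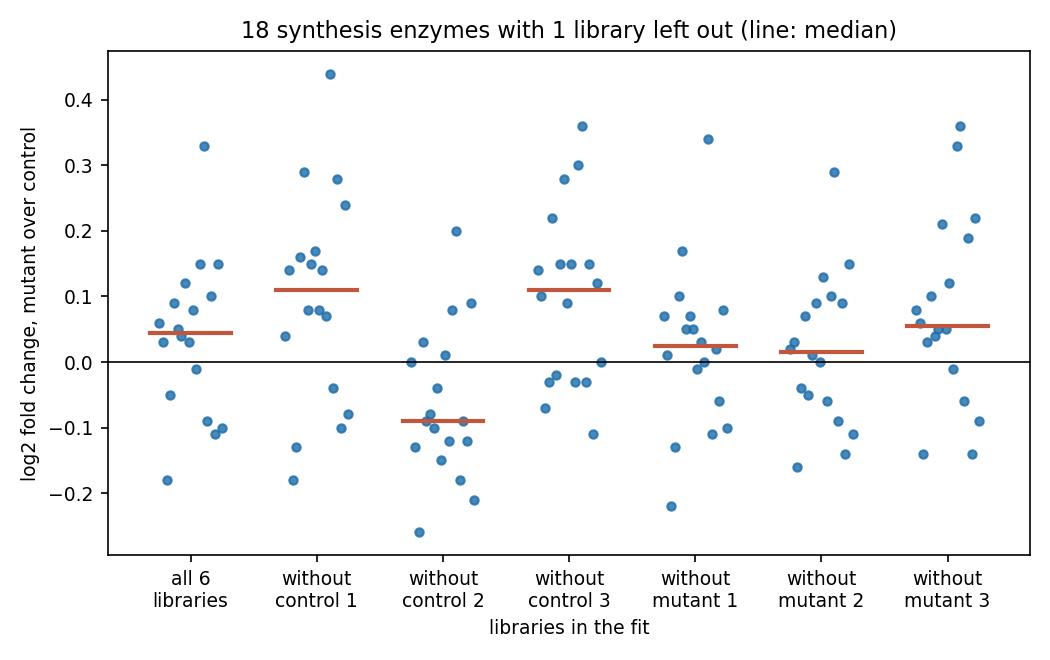
Log2 fold change, mutant over control, of the 18 synthesis enzymes (points) and their median (line) with all 6 libraries and with each library left out in turn. The median lies at 0.05 with all libraries and below 0, at -0.09, without control 2, while without control 1 and without control 3 it lies at 0.11.

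A further 41 genes of the pathway were looked at as a list. All 41 were tested and none was called by edgeR, DESeq2 or limma-voom, with 3 at an unadjusted p under 0.05 (7.32%, beside 8.64% of all genes), all higher in the mutants. The groups did not overlap for 7 of 41 (17.1%, beside 14.4%), 5 with the mutants higher and 2 lower. The median log2 fold change was 0.01, with 22 above 0 and 19 below. By role, the medians were -0.06 for 6 other synthesis genes, 0.02 for 6 genes of SREBP processing, 0.04 for 9 of lipoprotein uptake, 0.05 for 9 of transport and esters, 0.01 for 7 partners of efflux and -0.05 for 4 oxysterol enzymes.

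Vldlr, a receptor that takes up lipoproteins rich in triglyceride, had 41.1, 32.6 and 32.4 CPM in the controls against 46.4, 47.2 and 41.2 CPM in the mutants. Mutant 3 and control 1 nearly met (fold change 1.27, 1.07 to 1.51, unadjusted p = 0.0112, adjusted p = 0.405). Nceh1, which frees cholesterol from its esters, had 6.36, 6.26 and 5.28 CPM in the controls against 8.26, 8.0 and 7.55 CPM in the mutants, with a clear gap between the groups (fold change 1.33, 1.07 to 1.65, unadjusted p = 0.0156, adjusted p = 0.444). Apoe, the apolipoprotein that carries cholesterol away from macrophages and other cells, had 174, 140 and 176 CPM in the controls against 181, 202 and 230 CPM in the mutants. For Apoe mutant 3 was highest, as for most macrophage markers, and control 2 lowest (fold change 1.25, 1.05 to 1.5, unadjusted p = 0.0193, adjusted p = 0.460).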

How the data were processed

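RNA of growth plate cartilage was sequenced in 3 control and 3 Idh1 mutant libraries, grouped by the sample labels. The authors trimmed the reads (Trim Galore 0.6.4), mapped them to GRCm38 (STAR 2.6.1d) and counted them on exons with featureCounts 1.6.4, without regard to strand, and ambiguous and multi-mapping reads were dropped. The deposited values are raw counts, whole numbers for each gene in each library. Shares of exon bases were computed on GENCODE exons. For some genes, among them Fdft1, Tm7sf2 and Npc1, these differ in length from the exons that were counted.

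From these counts, edgeR 4.0.16 in R 4.3.3 was run with filterByExpr (minimum count 10, minimum total count 15), TMM factors and the quasi-likelihood test of genotype over 16813 genes, with Benjamini-Hochberg adjustment over all of them. Intervals at 95% were taken from a standard error, the size of the log2 fold change over the root of its F statistic. They used the total degrees of freedom of the test, residual and prior together. DESeq2 1.42.0, limma 3.58.1 (voom), other factors and filters, the replicate number as a block and each library left out in turn were alternatives. Litters are not named in the labels and were not fitted, whereas the paper's own fit used litter and genotype. Nothing states that the libraries came from independent animals, so p-values measure the spread between these libraries. Replicates of a group were not repeats of 1 library (chi-square over degrees of freedom 11.7 to 45.9 between their counts), and the functions were tested on simulated counts.

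The members and lists were chosen with earlier results of these data known. All 30 members are named, with values in every library for those that did not overlap or had an unadjusted p under 0.05 and for the highest and lowest of each role per length. Other pathway genes are named at an unadjusted p under 0.05. Mvk, Nsdhl, Insig1, Insig2, Abca1, Sqle, Mvd and Hsd17b7 were given in full after their values were seen. Results of some other pathway genes are not reported here. Python 3.11.15 with matplotlib 3.10.9 drew the figures.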

Additional observations from a re-analysis of the deposited data

How the results depend on the processing

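None of the 30 members and none of the 41 other pathway genes was called at an adjusted p under 0.05 in any of 15 fits, the one reported and 14 alternatives. Members at an unadjusted p under 0.05 numbered 2. With RLE factors, with DESeq2, with at least 10 counts in every sample and with the replicate block in edgeR there was 1, Msmo1, and with the replicate block in DESeq2 there were 0. They ranged from 0 to 3 with 1 library left out, and were 0 without mutant 2 and 3 without control 1 (Msmo1, Scap and Insig2). The labels tie same-numbered samples together by the number alone. Correlations of their deviations were -0.127, 0.007 and -0.0953, and no library correlated best with its own number. With so few samples, these values cannot show whether litters were shared. The block moved the edgeR calls over all 16813 genes from 32 to 3. DESeq2 called 193 genes (96 with the block), limma-voom 19, edgeR without a low-count filter 259, and edgeR with 1 library left out 3 to 17.

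With 1 library left out, the median log2 fold change ranged from -0.09 to 0.11 for the enzymes, from -0.11 to 0.13 for the regulators and from -0.04 (without control 3) to 0.13 (without control 2) for the transport, LXR and efflux genes. Leaving aside values that round to 0.00, the sign of the log2 fold change turned in 20 of 198 such values of single genes and in 0 of 264 under the other settings. Unrounded, it turned in 24 (also Acat2, Sqle, Stard4 and Tm7sf2, at 0.00) and in 3 (Cyp51 and Stard4, at 0.00). The genes of the 20 ranged as follows. Fdft1 lay between -0.04 and 0.28, Cyp51 between -0.12 and 0.14, Sqle between -0.15 and 0.17, Hsd17b7 between -0.09 and 0.28 and Lss between -0.01 and 0.15. Hmgcs1 lay between -0.13 and 0.14, Pmvk between -0.13 and 0.03, Mvd between -0.09 and 0.22, Idi1 between -0.08 and 0.29 and Fdps between -0.10 and 0.15. Insig1 lay between -0.05 and 0.22, Srebf2 between -0.22 and 0.10, Stard4 between -0.11 and 0.12, Nr1h2 between -0.04 and 0.12 and Nr1h3 between -0.14 and 0.34. None of these values passed the threshold.

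With bases before the start alone, the CCAAT box stayed in 19 of 24 member promoters, the GC box went from 21 to 20 and the sterol regulatory element stayed in 1. Among the members, counting error relative to the level is largest for Nr1h3 (44 to 99 counts per library) and Idi1 (84 to 152), which had the fewest reads.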
